A study of Mus musculus with 10 samples.

Results

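The transcriptome described here is that of CD4+CD25+ T cells taken from the lymph nodes of wild type mice, measured on the 4 arrays that the labels give to wild type mice of 10 arrays in the series. The mice were BALB/c, aged 17 to 19 days, and carried no SHP-1 knockout allele. The nodes of several sites, among them inguinal, axillary, brachial, cervical, renal and pancreatic nodes, were combined, and the cells were purified with a magnetic regulatory T cell kit and neither cultured nor treated. From 20 ng of RNA an amplified product was made, of which 10 ug was labelled for an Affymetrix mouse array. The series was built to compare these cells with those of mice that lack 1 copy (he, 3 arrays) or both copies (me, 3 arrays) of a working Ptpn6, which encodes the phosphatase SHP-1; those 6 arrays enter here only where a second view of the variation between arrays is given. The arrays are called WT 1 to WT 4. The labels call them biological replicates and say nothing more about separate animals, so the spread given below is the spread between these samples.

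Regulatory T (Treg) cells are CD4+ T cells that restrain other immune cells. Their program depends on the transcription factor Foxp3, and they carry the interleukin 2 receptor alpha chain (CD25), which lets them take up interleukin 2 that they do not make themselves. They act through surface receptors such as CTLA-4 and through secreted mediators. CD25 also appears on conventional T cells after activation, so a CD4+CD25+ fraction holds Treg cells in the main but not by definition.

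Levels are log2(intensity + 32) after quantile normalisation over the 4 arrays, with 1 probe set per gene, that of the highest mean. This gave 18193 genes. The brightness of a probe set depends on its probes as well as on the transcript, so the order of genes is an order of hybridisation signal, and no gene is set against another by a ratio. Background was read from 70 genes for olfactory and vomeronasal receptors, which are silent outside sensory organs and germ cells: a gene was above background where it exceeded the 95th percentile of these genes in 4 of 4 arrays, and at background where it did so in none. That percentile was 7.59, 7.61, 8.09 and 7.98 in WT 1 to WT 4. The median of the same genes was 7.20, 7.19, 7.30 and 7.28, so the cut rose more than the median in WT 3 and WT 4. A call in WT 1 and WT 2 only can therefore follow from the lower cut there as well as from the level. In all, 7061 genes (38.8%) were above background, 5802 (31.9%) at background and 5330 (29.3%) above it in only some arrays. High means the top 10% by mean level, which is 1819 genes at or over 9.98. Each list count below is to be read beside these shares of all genes, 38.8% above background and 10% high. The deposited intensities had a lowest value of 72.4 to 81.5 per array, so differences between low values are compressed.

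The arrays did not form 1 cloud. WT 1 and WT 2 correlated at r = 0.988 across probe sets and WT 3 and WT 4 at r = 0.984, against 0.874 to 0.903 between the pairs. Deposited median intensities were 148 and 149 in WT 1 and WT 2 and 183 and 185 in WT 3 and WT 4, and the cre hybridisation control read 27388 and 27127 in the first pair and 16150 and 14091 in the second. The ratio of 3' to 5' signal of the Gapdh control was 9.53, 7.84, 9.27 and 7.90 in WT 1 to WT 4, higher in WT 1 and WT 3, and that of the actin control 11.99, 16.36, 17.71 and 13.99. Fewer genes were over the background percentile in WT 3 (8215) and WT 4 (8669) than in WT 1 (11065) and WT 2 (10990). Levels below are therefore given array by array where a result turns on them.

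**Figure D1:**
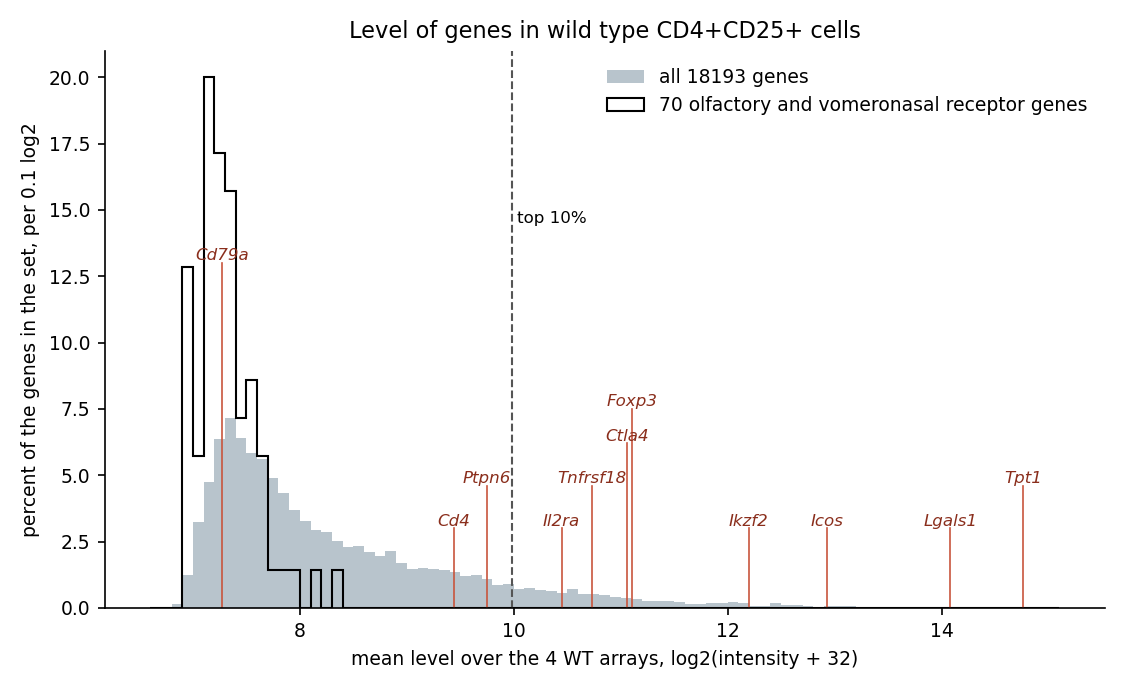
Histogram of the mean level over the 4 wild type arrays, as a percent of all 18193 genes (grey) and of the 70 olfactory and vomeronasal receptor genes that set the background (black line), in bins of 0.1 log2. Red lines place single genes at their mean (their heights carry no value): Foxp3, Ctla4, Tnfrsf18, Il2ra and Ikzf2 lie beyond the dashed line at 9.98 where the top 10% begins, and the B cell gene Cd79a lies among the receptor genes.

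The defining Treg transcripts were far above background in all 4 arrays. Foxp3, the lineage-defining transcription factor, read 10.66, 10.90, 11.38 and 11.49 in WT 1 to WT 4, a mean of 11.11 ± 0.39 (SD, n = 4), and stood at the 96.5th percentile of all genes. Ikzf2, which encodes Helios, a transcription factor common in thymus-derived Treg cells, read 12.29, 12.07, 12.07 and 12.35 and was high in every array. Ctla4, the inhibitory receptor that takes CD80 and CD86 off antigen-presenting cells, read 11.55, 11.30, 10.24 and 11.17 with WT 3 the low array. Tnfrsf18, which encodes the receptor GITR, was nearly level across arrays at 10.74, 10.76, 10.74 and 10.66. Il2ra, which encodes the CD25 used to isolate the cells, read 10.24, 10.49, 10.71 and 10.34, and Cd4, the other selection marker, 9.26, 9.61, 9.41 and 9.47. Neither is a finding, since the cells were chosen for these proteins. Ptpn6, the gene whose loss defines the other genotypes, was present at 9.58, 9.67, 9.88 and 9.85, at the 87.8th percentile.

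Second probe sets of these genes did not follow the brighter ones in every array. The dimmer Il2ra probe set read 9.19 and 9.44 in WT 1 and WT 2 and 8.54 and 8.37 in WT 3 and WT 4, so it parted the pairs where the brighter one did not. The second Ikzf2 probe set read 10.75, 10.45, 10.23 and 11.06, and the third stayed between 7.20 and 7.73. The dimmer Cd4 probe set read 7.81 in both WT 1 and WT 2 and 8.96 and 8.98 in WT 3 and WT 4. Foxp3, Ctla4 and Tnfrsf18 had 1 named probe set each. The order of the pairs for Foxp3 also depended on the scaling: WT 3 and WT 4 lay above WT 1 and WT 2 after quantile normalisation, the pairs overlapped with no normalisation, and WT 1 and WT 2 lay above with each array centred on its median. The Ctla4 order, WT 1 and WT 2 above, was the same under these 3 scalings.

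Of the wider Treg list, 23 of 26 measured genes were above background and 10 were high, against 38.8% and 10% of all genes. Beside the 5 markers the high members were Icos (inducible costimulator, 12.93 ± 0.34), Itgae (the integrin CD103, 11.39 ± 0.70), Klrg1 (an inhibitory receptor of effector Treg cells, 10.76 ± 0.88), Tnfrsf4 (OX40, 10.66 ± 0.27) and Penk (proenkephalin, 10.46 ± 0.39), each as mean ± SD (n = 4). Icos was the highest of the list in hybridisation signal and read 13.17, 13.09, 12.43 and 13.04. Ikzf4, which encodes the Foxp3 partner Eos, read 9.30, 9.28, 10.26 and 10.25, and Gpr83, a receptor enriched in Treg cells, 9.56, 8.90, 10.45 and 8.93. Nt5e and Entpd1, the ectoenzymes CD73 and CD39 that turn ATP into adenosine, were above background but low, at 8.86 ± 0.27 and 8.18 ± 0.11. The 3 members that were not above background in every array were Fgl2, Ecm1 and Il2rb, each above it in 3 of 4 arrays. Lrrc32 and Tigit were not analysed here. No member was at background.

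T cell identity was as plain. In the T cell lineage list 26 of 27 genes were above background and 15 high. Ptprc, the phosphatase CD45, read 13.46 ± 0.16, Thy1 12.07 ± 0.25, the transcription factor Bcl11b 11.61 ± 0.37 and Ets1, a factor that keeps T cells mature, 11.45 ± 0.26. The signalling chains of the T cell receptor were all present: Cd3d 11.08 ± 0.52, Cd3g 10.95 ± 0.23, Cd3e 10.05 ± 0.20 and Cd247 10.36 ± 0.16. The kinases Fyn (10.91 ± 0.11) and Zap70 (9.52 ± 0.21) and the adaptors Lat (10.64 ± 0.09) and Lcp2 (10.29 ± 0.18) that pass on its signal were above background too. Cd3d had the widest range of the list, 10.67, 10.61, 11.69 and 11.35. Txk, a Tec family kinase, was the exception and was above background in 2 arrays only.

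**Figure D2:**
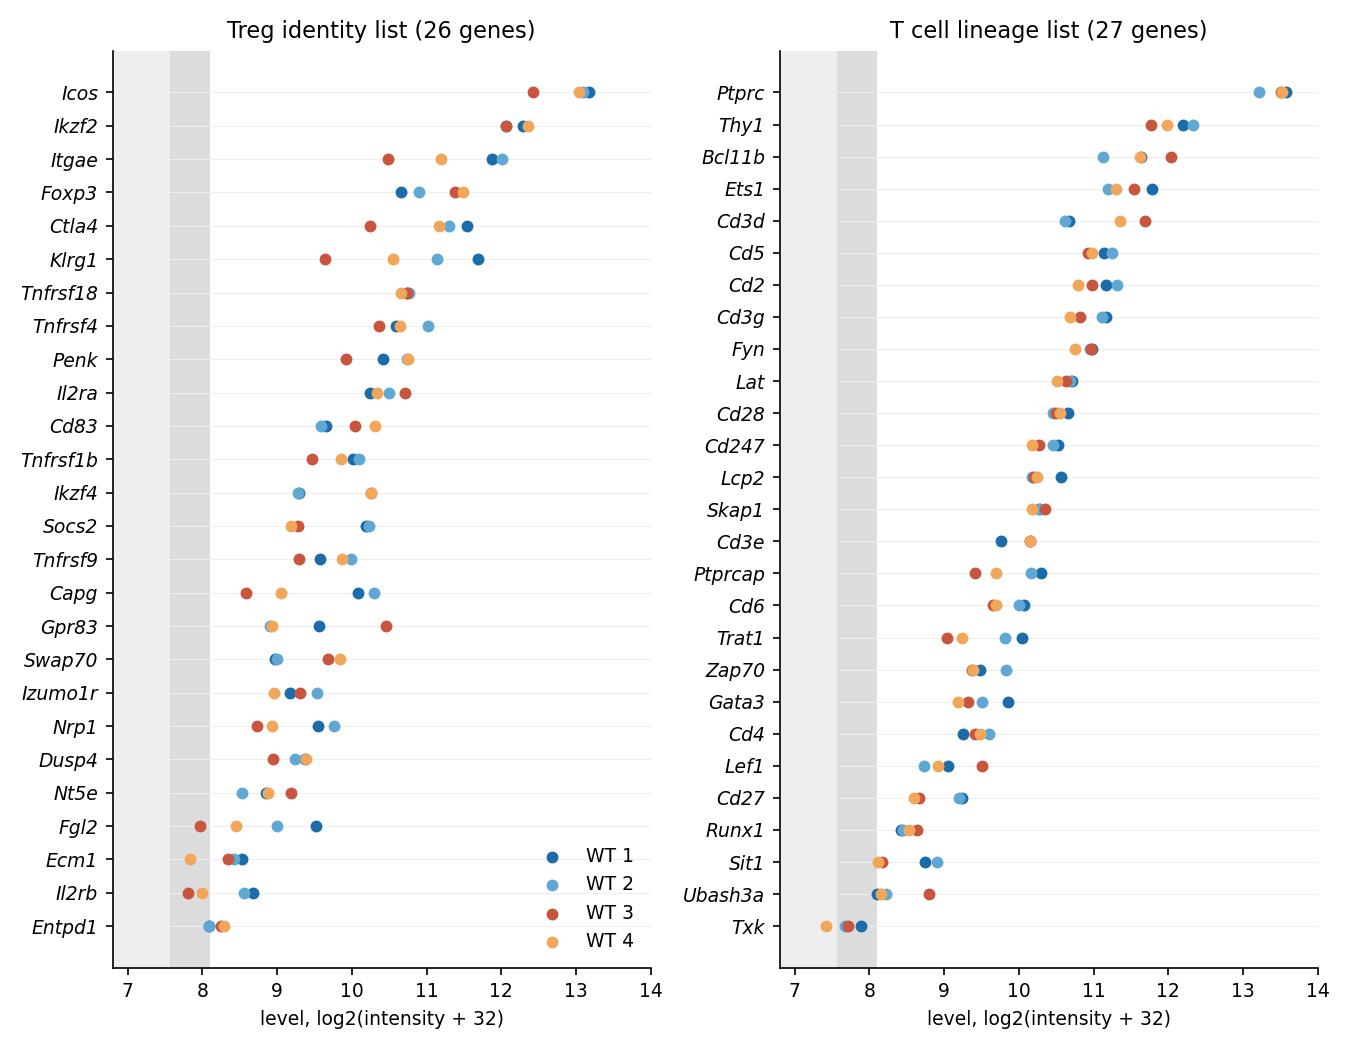
Level of each measured gene of the Treg identity list (left, 26 genes) and the T cell lineage list (right, 27 genes) in each wild type array, log2(intensity + 32), 1 point per array. The light grey area lies under the lowest background percentile of the 4 arrays (7.59) and the darker one between the lowest and the highest (8.09); Foxp3, Ikzf2, Ctla4 and Icos lie far to the right of both, and Fgl2, Ecm1, Il2rb and Txk reach into them.

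Transcription factors of several helper lineages were measured together with Foxp3. Of the helper lineage list 23 of 30 genes were above background and 7 high, among them Hif1a (11.56 ± 0.30), Id2 (11.11 ± 0.18), Foxo1 (10.79 ± 0.20) and Maf (10.76 ± 0.56). Rora, a factor of interleukin 17 producing and innate cells, read 10.45 ± 0.13, Batf 9.65 ± 0.15, Irf4 9.60 ± 0.22, Gata3, the factor of type 2 helper cells, 9.47 ± 0.29, and Bcl6, that of follicular helper cells, 8.84 ± 0.23. Tbx21, the factor of type 1 helper cells, was over background in WT 1 and WT 2 alone, at 8.59, 8.68, 7.90 and 7.92. Prdm1, which encodes Blimp-1, read 8.83, 8.58, 7.64 and 8.29 and was above background in 3 arrays. Eomes (7.47 ± 0.10) and Zeb2 (7.47 ± 0.23), factors of cytotoxic cells, were at background. Stat5b and Stat5a, which carry the interleukin 2 signal, read 9.54 ± 0.16 and 8.77 ± 0.70.

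Transcripts of resting cells were held at high levels beside this. In the naive and resting T cell list 15 of 17 genes were above background and 9 high. Btg1, an antiproliferative factor, read 12.17 ± 0.24, Il7r, the interleukin 7 receptor that Treg cells usually hold low, 11.57 ± 0.37, Rgs10 10.87 ± 0.25 and Foxo1 10.79 ± 0.20. Satb1, a chromatin organiser that Foxp3 represses, read 10.70, 9.84, 11.52 and 10.29. Ccr7, the homing receptor for the T cell zone, was above background at 9.28 ± 0.19 but not high. Tcf7 was not analysed here.

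Among cytokine receptors, 22 of 34 (64.7%) were above background and 7 (20.6%) high, beside 38.8% and 10% of all genes. Besides Il7r and Il2ra the high ones were both chains of the TGF-beta receptor, Tgfbr2 (10.68 ± 0.30) and Tgfbr1 (10.55 ± 0.14), and Il18r1 (10.40 ± 0.11), Il6ra (10.15 ± 0.29) and Il27ra (10.08 ± 0.14). Il17rb, a chain of the interleukin 25 receptor, read 9.84 ± 0.22 and Il1r2, a decoy receptor for interleukin 1, 9.34 ± 0.44. Il4ra (8.29, 8.12, 7.82 and 7.78), Il21r (7.96 ± 0.20) and Il12rb1 (7.92 ± 0.44) were above background in WT 1 and WT 2 only. Lifr and Il9r were at background.

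The receptors for chemokines and tissue exit were fewer, at 11 of 24 above background, close to the 38.8% of all genes. Ccr6, a receptor of cells that home to the gut and to inflamed tissue, read 10.56, 10.43, 11.72 and 11.30. P2ry10 (10.21 ± 0.42), Gpr183 (9.99 ± 0.72) and Cxcr3, a receptor for interferon-induced chemokines (9.76 ± 0.45), followed. S1pr1, which lets T cells leave the node, read 9.42 ± 0.34. Cxcr5, the receptor for B cell follicles, was at background (7.43 ± 0.15), as were Cxcr2, Ccr3, Xcr1 and Ackr3. Ccr4 and Ccr8, which are well known on activated Treg cells, were not above background in WT 3 or WT 4 (7.69, 7.82, 7.24 and 7.32 for Ccr4 and 7.61, 7.49, 7.33 and 7.38 for Ccr8).

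In the TNF receptor superfamily 8 of 23 genes were above background: Tnfrsf18, Tnfrsf4, Tnfrsf25 (9.86 ± 0.18), Tnfrsf1b (9.86 ± 0.28), Tnfrsf9 (9.68 ± 0.31), Cd27 (8.93 ± 0.34), Tnfrsf1a (8.60 ± 0.15) and Tnfrsf13b (8.58 ± 0.20). The share is no larger than that of all genes, and the members above background include the costimulatory receptors GITR, OX40, 4-1BB and DR3 that Treg cells are known for. Ngfr, Tnfrsf17, Tnfrsf23 and Eda2r, receptors of other tissues, were at background. Fas read 8.29, 7.95, 7.99 and 7.77 and passed the background in the first pair only, where the cut was lower.

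Costimulatory and inhibitory receptors were above background in 21 of 31 cases (67.7%), beside 38.8% of all genes. Icos, Cd5 (11.08 ± 0.15), Cd2 (11.06 ± 0.22), Ctla4 and Cd48 (11.09, 10.80, 10.97 and 11.16) were the highest. Cd28 read 10.54 ± 0.09, Btla 9.82 ± 0.11 and Slamf6 10.12 ± 0.13. Pdcd1, which encodes PD-1, was above background in 3 arrays (8.69, 8.81, 8.09 and 8.17), and Lag3 (7.66 ± 0.12) and Havcr2 (7.83 ± 0.32) in 2. Cd276 was at background.

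Integrins and adhesion molecules were above background in 17 of 27 cases (63.0%), with 8 (29.6%) high, beside 38.8% and 10% of all genes. Itgb7 (11.77 ± 0.15) and Itgae, the chains that pair to bind epithelial E-cadherin, were both high, and so were Cd47 (11.73 ± 0.08), Selplg (11.32 ± 0.14), Itgb2 (10.99 ± 0.12) and Cd44 (10.98 ± 0.12). Itgae read 11.88, 12.01, 10.48 and 11.19, lowest in WT 3. Itgb8, part of the integrin that frees active TGF-beta, was above background at 8.81 ± 0.28. Itgam, Itgax and Itga2, integrins of myeloid and natural killer cells, were at background.

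Of the cytokines and secreted mediators 18 of 39 (46.2%) were above background, beside 38.8% of all genes, and 6 (15.4%) were high, beside 10%: Lgals1 (galectin 1, 14.08 ± 0.38), Lgals3 (11.50 ± 0.29), Ccl5 (11.49 ± 0.88), Ltb (lymphotoxin beta, 10.85 ± 0.10), Penk and Mif (10.36 ± 0.23). Il2 was over background in WT 1 only (7.87, 7.51, 7.85 and 7.83), though WT 3 and WT 4 read nearly the same under a higher cut. Il4 was also over background in 1 array only (7.48 ± 0.12), and Il5 (7.39 ± 0.19), Il6 and Il3 were at background. Il10, an effector cytokine of Treg cells, read 8.32, 8.40, 7.18 and 7.61: WT 1 and WT 2 were over background and WT 3 and WT 4 were not. Tgfb1 behaved alike at 8.22, 8.36, 7.66 and 7.87. Ebi3, a subunit of interleukin 35, was above background at 8.92 ± 0.34, and its partner Il12a at background (7.33 ± 0.09). Il17a was above background in 4 of 4 arrays at 8.04, 8.06, 9.46 and 9.58, higher in WT 3 and WT 4. Ifng read 8.28 ± 0.22 and was above background in 3 arrays.

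Cytotoxic granule genes were above background in 12 of 17 cases (70.6%), beside 38.8% of all genes. Srgn, the granule proteoglycan serglycin, read 13.23 ± 0.13, the protease Ctsc 11.06 ± 0.17, Lamp1 10.58 ± 0.10 and Stx11 10.11 ± 0.18. Gzmb, granzyme B, read 9.92, 10.27, 8.87 and 9.58, lowest in WT 3. Prf1, the pore protein perforin, was over background in WT 1 and WT 2 alone (7.71, 7.73, 7.53 and 7.46), and Gzmm was at background.

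Every one of the 29 immediate early and activation genes was above background, and 16 were high. Nfkbia, the NF-kappaB inhibitor that NF-kappaB itself induces, read 13.99 ± 0.08 and was among the 25 highest of all genes. Tnfaip3 (12.97 ± 0.21), Fos (12.73 ± 0.17), Zfp36l1 (12.62 ± 0.10) and Dusp1 (12.48 ± 0.15) followed, and Cd69, an early activation receptor, read 10.82 ± 0.26. The nuclear receptors Nr4a1 (10.24 ± 0.17) and Nr4a2 (10.52 ± 0.54), which report T cell receptor signals, were also high.

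Interferon response genes were above background in 17 of 26 cases (65.4%), beside 38.8% of all genes. The highest were Ifi35 (11.56 ± 0.28), Ifi47 (11.42 ± 0.26), Igtp (11.12 ± 0.12) and Irf1 (10.72 ± 0.13). Ifit1 (7.49 ± 0.08) and Usp18 (7.58 ± 0.07), classical targets of type I interferon, were at background. Of the heat shock genes 14 of 18 were above background and 13 high, led by Hspa8 (13.18 ± 0.12), Hsp90aa1 (12.90 ± 0.08), Hspa5 (12.63 ± 0.29) and Hspd1 (11.72 ± 0.15). The strictly stress-induced Hspa1a and Hspa1b were low at 7.97 ± 0.16 and 8.14 ± 0.32 and missed the background in 1 array each.

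Metabolic lists differed in their shares. Oxidative phosphorylation had 38 of 41 genes above background and 29 high, led by Uqcrb (complex III, 14.12 ± 0.15), Cox6a1 (complex IV, 13.28 ± 0.30), Ndufa1 (complex I, 12.94 ± 0.18) and Atp5c1 (ATP synthase, 12.77 ± 0.20). The 3 at background, Cox4i2, Cox8b and Cox7a1, are the subunit forms of lung, heart and muscle, whose general counterparts Cox4i1 (12.02 ± 0.12), Cox8a (9.64 ± 0.11) and Cox7a2 (12.17 ± 0.19) were above it. The tricarboxylic acid cycle had 21 of 23 above background, with Mdh2 (12.84 ± 0.24), Idh3g (12.03 ± 0.18), Sdhb (11.94 ± 0.14) and Mdh1 (11.77 ± 0.03) the highest. Ogdh was above background in 2 arrays.

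Glycolysis was a list of general and tissue forms. Of its 24 genes 14 (58.3%) were above background and 10 (41.7%) high, beside 38.8% and 10% of all genes. Among the high ones were Pgk1 (13.14 ± 0.13), Ldha (12.83 ± 0.08), Aldoa (11.49 ± 0.24) and Pkm (10.80 ± 0.15). The glucose transporters Slc2a3 and Slc2a1 read 10.65 ± 0.21 and 9.99 ± 0.60. The testis forms Pgk2 and Ldhc and the muscle form Pgam2 were at background. Hk2, the inducible hexokinase, was over background in WT 1 and WT 2 alone (8.15, 8.27, 7.65 and 7.80), and Hk1 read 10.22 ± 0.28.

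Fatty acid oxidation had 16 of 27 genes (59.3%) above background, beside 38.8% of all genes. The highest were Fabp5 (12.74 ± 0.26), Hadh (12.45 ± 0.14), Acsl5 (11.49 ± 0.11) and Hadhb (10.86 ± 0.35). Cpt1a, the gate of long-chain oxidation, read 9.08 ± 0.24. Cd36, Fabp4 and Ppargc1a were at background. Cholesterol and fatty acid synthesis had 19 of 29, led by Elovl5 (12.72 ± 0.11), Acly (11.46 ± 0.20), Scd2 (10.92 ± 0.09) and Elovl1 (10.75 ± 0.29). In the list of nutrient transport and mTORC1, the kinase complex that couples nutrients to growth, 22 of 28 were above background. Slc38a2 (11.23 ± 0.11), Lamtor1 (10.90 ± 0.24), the transferrin receptor Tfrc (10.76 ± 0.26) and Rheb (10.70 ± 0.31) led it, and Slc7a11 and Prkaa2 were at background. Of the nucleotide synthesis genes 22 of 25 were above background, led by Rrm2 (12.11 ± 0.41), Hprt (11.34 ± 0.19), Rrm1 (11.25 ± 0.26) and Paics (11.15 ± 0.22).

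Genes of cell division were well represented. Of 34 cell cycle genes 27 were above background and 21 high. The replication clamp Pcna read 13.11, 12.85, 12.92 and 13.08, the helicase subunit Mcm7 12.52, 12.84, 12.13 and 12.50 and Mki67, the antigen of cycling cells, 12.56, 12.49, 12.18 and 12.72. Ccnd2 (12.26 ± 0.05), Top2a (11.64 ± 0.29) and the mitotic cyclins Ccna2 (10.97 ± 0.42) and Ccnb2 (10.64 ± 0.45) were high too. Cdkn2a, a brake on the cycle, was at background.

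The 25 highest genes were those of translation, the cytoskeleton and a few immune products. Tpt1, a translation-linked protein, stood first with 14.97, 14.91, 14.60 and 14.57, followed by Tmsb10, an actin-binding thymosin (14.58 ± 0.13). Ribosomal genes made up 11 of them, Rps29, Rps28, Rpl13a, Rpsa, Rps4x, Rps20, Rps18, Rps3, Rpl7, Rps7 and Rpl4, at means from 13.76 to 14.35. Translation was also present with Eef1a1, the elongation factor (14.12 ± 0.05), and the RNA-binding proteins Serbp1 (13.99 ± 0.13) and Pabpn1 (13.81 ± 0.17). The actins Actb (14.12 ± 0.08) and Actg1 (13.71 ± 0.15) and cofilin, Cfl1 (14.08 ± 0.20), which severs actin filaments, belong to the cytoskeleton. Ran (13.88 ± 0.06) drives nuclear transport, Shisa5 (13.95 ± 0.04) is a membrane protein linked to apoptosis, and Uqcrb, Lgals1 and Nfkbia are described above. Trav9d-3, a variable segment of the T cell receptor alpha chain, read 13.85, 13.98, 14.18 and 14.26, although variable segments resemble each other and its probe set may take up others. Of the whole ribosomal protein list 34 of 35 genes were above background and 30 high, with Rps16 alone at background (6.89 to 7.07 in WT 1 to WT 3). That is the reading of 1 probe set and does not show that Rps16 is silent in these cells. The others of the 54 listed were not analysed here.

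**Figure D3:**
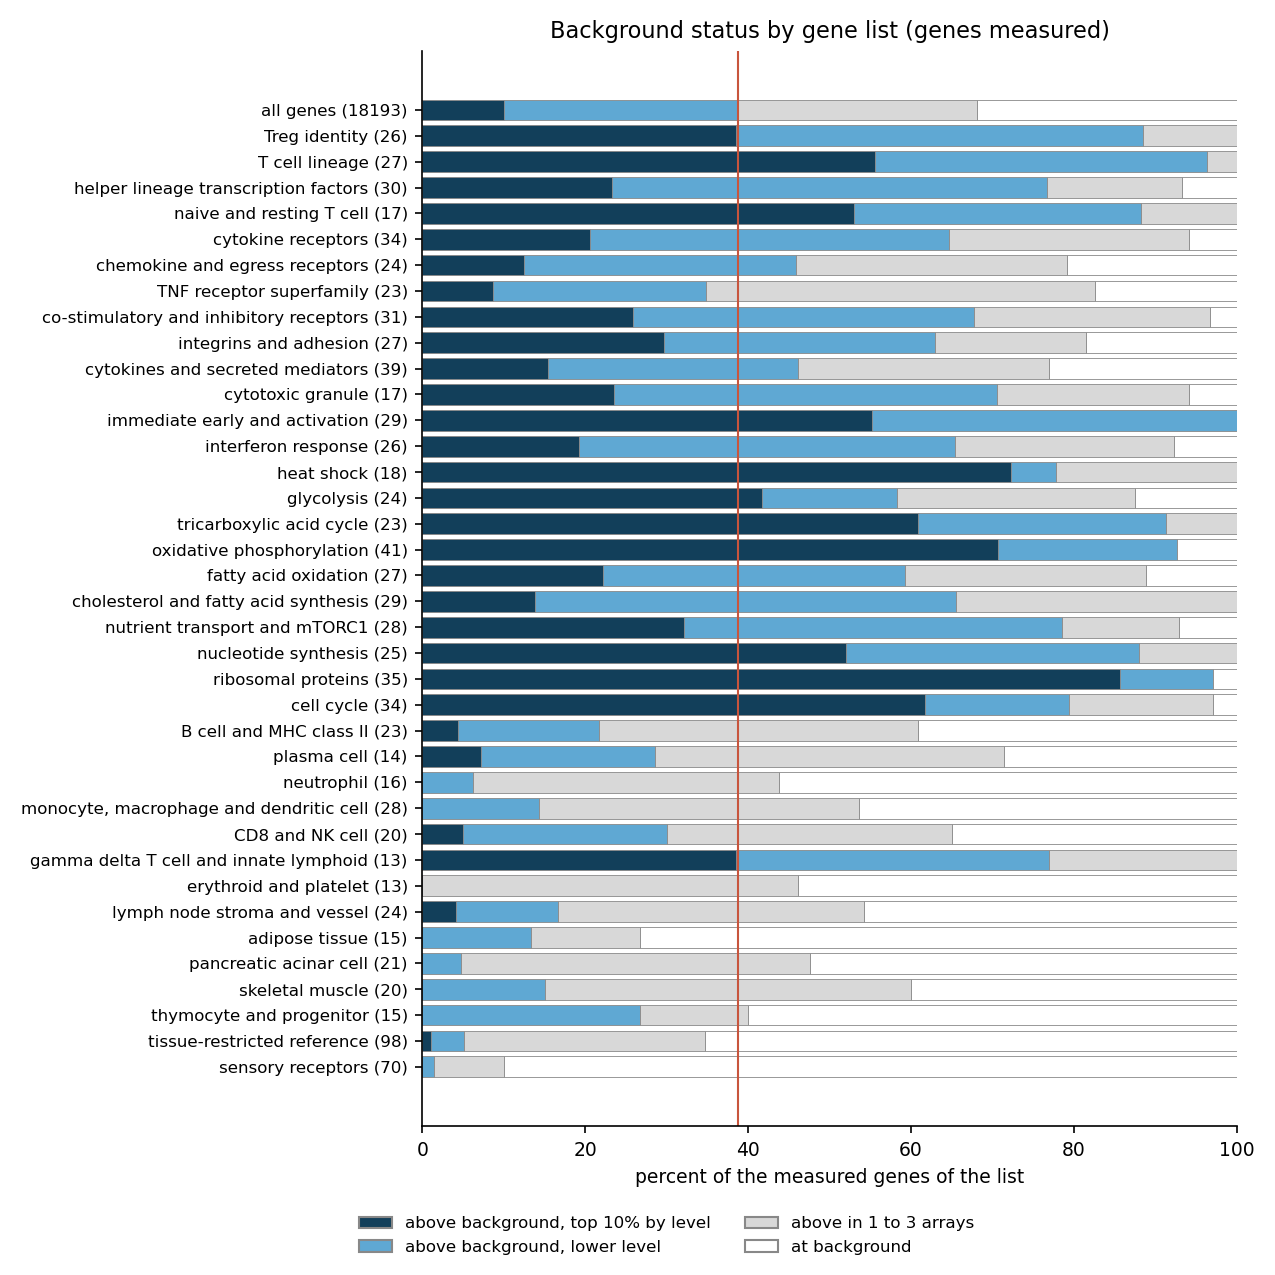
Share of the measured genes of each list that were above background and in the top 10% by level (dark blue), above background at a lower level (light blue), above it in 1 to 3 arrays (grey) or at background (white), with the number of measured genes in parentheses. The red line marks the 38.8% of all 18193 genes that were above background: ribosomal, oxidative phosphorylation, T cell lineage and Treg lists lie well beyond it, and the lists of other cells lie short of it except that of gamma delta T and innate lymphoid cells.

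Promoter windows of high genes held the ETS core more often than those of genes at background. Promoter windows ran from 250 bases before to 50 bases after the RefSeq start on GRCm38.p6, and 11791 genes of the array had exactly 1 such window. The ETS core CCGGAAG, the site type bound by Ets1 and by the GABP factors of housekeeping genes, was searched on both strands. It lay in 23.5% of the windows of high genes (286 of 1216), in 4.63% of those at background (176 of 3803), in 14.1% of those of all genes on the array (1664 of 11791) and in 9.12% of all windows (2084 of 22862). Among all genes above background it lay in 22.5% (1038 of 4622), near the share of high genes. With all genes cut into 10 equal bins by level, the share from the highest bin down was 23.5%, 26.2%, 23%, 17.8%, 14.2%, 13.2%, 8.89%, 5.37%, 4.81% and 4.02%, so it was largest in the bin after the highest and smallest in the last. It was 23.8% among high genes with a range of 1 or less over the arrays.

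Other motifs moved with level in different ways. The GC box GGGCGG, a site of Sp factors, lay in 70.8% of high, 36% of background, 54.3% of array and 35.2% of all windows. The core GCGCATGC of NRF1, a regulator of mitochondrial genes, lay in 6.74%, 1.89%, 4.36% and 2.77% in the same order, and the YY1 motif AAGATGGC in 6.25%, 1.55%, 3.94% and 2.94%. The TATA element TATAAA was less common in high genes (7.81%) than at background (14.9%), over the array (10.2%) or over all windows (14.8%), and CCAAT was nearly level at 39.6%, 38.4%, 38.6% and 38.2%. Among all genes above background the shares were 68.7% for GGGCGG, 6.49% for GCGCATGC, 6.32% for AAGATGGC and 6.73% for TATAAA. These lay near those of high genes, so the contrasts were mostly between genes above and at background. CCGGAAG and AAGATGGC shared bases in 1 window. These are matches of letters in a window and not measured binding.

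Stretches of 29 bases around the ETS core before the start of 6 high genes show its setting. They come from ribosomal (Rps18, Rpl38), respiratory (Cox6a1, Idh3g), growth (Slc3a2) and division (Cdc20) genes named here, and are from RefSeq, GRCm38.p6, read 5′ to 3′ on the strand of the gene, with the core in capitals. CTTCCGG is the same core on the opposite strand.
Rps18 (chr17:33955723-33955751, minus strand): agaagcaatttCCGGAAGtggacctccgg
Rpl38 (chr11:114668549-114668577, plus strand): gggttaaccgtCCGGAAGcggaagcctcg
Cox6a1 (chr5:115348959-115348987, minus strand): gtccccatttccgCTTCCGGcgcgccggt
Idh3g (chrX:73786984-73787012, minus strand): tgctctaggcaCCGGAAGggggcgtaaga
Slc3a2 (chr19:8714089-8714117, minus strand): agggtaaggggCCGGAAGgtcggaggagg
Cdc20 (chr4:118437410-118437438, minus strand): gagatttgctcCCGGAAGacccggccctc
The core shown began 75 bases before the start in Rps18, whose window holds another at 157, 20 in Rpl38, 16 in Cox6a1, 104 in Idh3g, 209 in Slc3a2 and 84 in Cdc20. Their mean levels were 13.87 ± 0.02, 13.13 ± 0.21, 13.28 ± 0.30, 12.03 ± 0.18, 10.61 ± 0.51 and 10.64 ± 0.56 in the same order.

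Markers of other cells were mostly at or near background. Their counts stand beside the 38.8% of all genes that were above background. In a bulk sample fewer cells of a type and less RNA per cell cannot be told apart, so the counts describe RNA and not cell numbers. In the B cell and MHC class II list 5 of 23 genes were above background, and 8 when WT 3 was left out. Cd79a (7.49, 7.30, 7.12 and 7.18), Ms4a1 (CD20, 7.47, 7.34, 7.98 and 7.72), Pax5 and Ebf1, which define the B lineage, were at background, whereas Ighm, the IgM heavy chain, read 11.51, 11.51, 10.71 and 11.29 at the brightest of its 11 probe sets; the next read 9.46, 9.40, 9.10 and 9.63, the one after it 8.27, 8.45, 8.04 and 7.99, and the other 8 under 8 in every array. Cd79b was low but above background (8.20 ± 0.09). H2-Aa (9.12, 9.51, 9.47 and 10.24) and H2-Ea (9.01, 9.07, 8.89 and 10.32), chains of MHC class II, were highest in WT 4. Of the plasma cell list 4 of 14 were above background: Xbp1 (11.20 ± 0.33), Irf4, Derl3 (8.58 ± 0.43) and Pou2af1 (8.30 ± 0.25), of which T cells also express Xbp1 and Irf4. Jchain and Tnfrsf17 were at background.

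Few myeloid markers were above background. Of the neutrophil list 1 of 16 genes was above background, Ngp (7.64, 7.78, 9.03 and 8.76), and S100a8, S100a9, Lcn2 and Mpo were at background in every array. Of monocyte, macrophage and dendritic cell genes 4 of 28 were above it: Ccr2 (9.60 ± 0.59), Tyrobp (8.48, 8.72, 9.77 and 9.78), Fcer1g (8.19 ± 0.06) and Csf1r (7.91 ± 0.28). Cd68, Cd14, C1qb, Itgax and Cd163 were at background. Of CD8 and natural killer genes 6 of 20 were above background, Ccl5, Gzmb, Cst7 (9.16 ± 0.19), Nkg7 (8.80 ± 0.08), Xcl1 (8.11 ± 0.05) and Gzma (8.08 ± 0.46), none of which is confined to those cells. Klrk1, Klrc1 and Eomes were at background and Cd8b1 read 7.74, 7.80, 7.57 and 7.48.

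The probe sets of Cd8a, a chain of the CD8 co-receptor, did not run together. The brightest read 7.56, 7.66, 12.22 and 12.25, and a second 7.13, 7.08, 11.58 and 11.66, while the other 3 probe sets stayed between 7.14 and 7.76 in all arrays. The 2 brighter ones thus set WT 3 and WT 4 far above WT 1 and WT 2, and the other 3 did not. Prox1, a factor of lymphatic vessels, was alike, with 7.23, 7.37, 12.29 and 11.95 at 1 probe set and 7.05 to 7.44 at its other 2.

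The list of gamma delta T and innate lymphoid cells stood apart from the lists of other cells, with 10 of 13 genes above background and 5 high. Il7r, Id2, Maf and Gata3 in it are also transcripts of CD4+ T cells. Further members above background included Ccr6, Il17a and Sox13 (8.11 ± 0.17). Cd163l1, a scavenger receptor seen on gamma delta T cells (10.37, 10.62, 9.82 and 9.38), and Trgv4, a variable segment of the gamma chain (9.30, 8.90, 9.41 and 8.38), were among them too. Trgv4 read 9.01, 8.53, 9.10 and 8.15 at its next probe set, with WT 1 and WT 3 above WT 2 and WT 4 at both of these brighter sets. The dimmest of its 3 probe sets read 6.95, 6.90, 6.89 and 6.91, above background in no array and without this order. The second Cd163l1 probe set read 7.85 to 8.67, lower in WT 3 and WT 4. Zbtb16, which encodes PLZF, and Kit were above background in WT 1 and WT 2 only. Il23r and the constant gene Trdc were not analysed here.

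Markers of other tissues were mostly at background. No erythroid or platelet gene of 13 was above background in all arrays. Of the pancreatic acinar genes 1 of 21 was, Cela1 (9.16 ± 0.11); Cpa1, Cpb1 and Cel were at background although pancreatic nodes were among those taken. Of adipose genes 2 of 15 were above background, Retn (8.15 ± 0.12) and Scd1 (7.88 ± 0.28), and Adipoq, Fabp4 and Lpl were not. Of muscle genes 3 of 20 were, Eno3 (9.67 ± 0.37), Tnnt1 (8.40 ± 0.12) and Myoz1 (8.01 ± 0.19). Of stroma and vessel genes 4 of 24 were: Vim (13.05 ± 0.29), which lymphocytes also express, Sparc (7.70, 7.87, 9.09 and 9.05), Pdgfrb (8.29 ± 0.39) and Igfbp7 (8.21 ± 0.17), while Col3a1, Cdh5, Lyve1 and Pdgfra were at background. Of thymocyte and progenitor genes 4 of 15 were, Themis (9.12 ± 0.19), Cd1d1 (8.89 ± 0.38), Lyl1 (8.22 ± 0.41) and Hhex (8.05 ± 0.16), and Rag1, Rag2, Dntt and Ptcra, which thymocytes need to build the receptor, were at background. Of 98 genes restricted to brain, skin, eye, liver and other organs 5 were above background: Crybb2, Lor, Mbp, Dbh and Oxt, all higher in WT 3 and WT 4 after quantile normalisation, of which Mbp overlapped between the pairs with no normalisation and was higher in WT 1 and WT 2 with median centring. Of the 70 sensory receptor genes that set the background 1 exceeded it in every array, Vmn1r65, and 63 in none.

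Expression varied little for most genes above background. The range, highest minus lowest array, had a median of 0.55 log2 with quartiles of 0.36 and 0.79, and exceeded 1, a 2-fold difference, in 963 of 7061 genes (13.6%). Among the high genes the steadiest were Sash3, a T cell adaptor (10.97, 10.97, 10.97 and 10.95), the proteasome subunit Psmc3, the chromatin insulator Ctcf (11.37, 11.34, 11.36 and 11.32), Rps18, Fam120a, Hnrnpll, a splicing factor that sets the CD45 isoform, Srpk1, Ranbp1, Ppp4r2 and Ghitm, with ranges from 0.02 to 0.08. No gene of the ribosomal, oxidative phosphorylation, heat shock, fatty acid oxidation, cholesterol and fatty acid synthesis or TNF receptor lists that was above background had a range over 1. Several lists had larger shares than the 13.6% of all genes above background. Among them were the naive and resting list (6 of 15), chemokine and egress receptors (6 of 11), cell cycle genes (9 of 27) and the Treg list (7 of 23). Helper lineage factors (7 of 23), cytotoxic granule genes (4 of 12) and glycolysis genes (4 of 14) were alike. So were gamma delta T and innate lymphoid genes (5 of 10) and CD8 and natural killer genes (3 of 6).

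Most of the wide ranges lay between the pairs of arrays. Of the 963 genes 683 were higher in WT 3 and WT 4, 234 higher in WT 1 and WT 2 and in 46 the pairs overlapped. The pairs were recognised from these same values, so this is a description. Without regard to size, WT 3 and WT 4 both lay above WT 1 and WT 2 in 2349 of 7061 genes (33.3%) and below them in 2928 (41.5%). These directions hang on the scaling: 44.5% of the genes that part the pairs were higher in WT 3 and WT 4 after quantile normalisation, 32.2% with no normalisation and 20.6% with each array centred on its median. Small orders between the pairs, that of Foxp3 among them, are therefore given as values only.

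**Figure D4:**
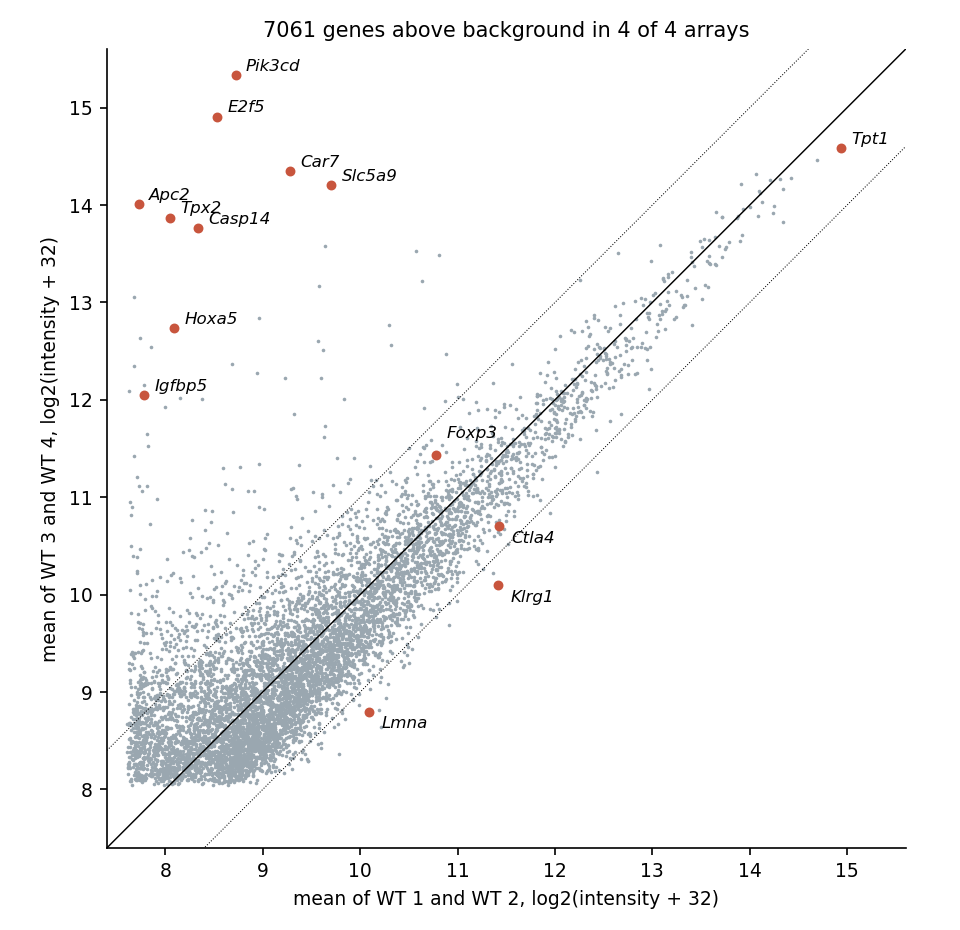
Mean level of the 7061 genes above background in WT 1 and WT 2 (horizontal) against WT 3 and WT 4 (vertical), log2(intensity + 32), 1 point per gene; the solid line marks equal levels and the dotted lines a difference of 1. Pik3cd, E2f5, Apc2, Tpx2, Casp14, Car7 and Slc5a9 stand far above the line in WT 3 and WT 4, with no mirror image below it, where Lmna and Klrg1 are among the farthest.

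The largest of these differences were mostly seen at 1 probe set of a gene and not at its others. Pik3cd, the catalytic subunit of the PI3 kinase of leukocytes, read 8.64, 8.81, 15.33 and 15.33, and its 5 other probe sets stayed between 6.99 and 8.94 in all 4 arrays. E2f5, a cell cycle repressor, read 8.36, 8.71, 14.91 and 14.91, and its other 2 probe sets 7.36 to 8.53. Tpx2, a spindle factor, read 7.95, 8.13, 13.85 and 13.89 at the brightest and 8.03, 8.15, 12.65 and 12.54 at the next, whereas the probe set after that went the other way at 9.94, 10.41, 9.09 and 9.62. The next by range were Apc2 (7.73, 7.72, 14.16 and 13.87), Dmwd, Casp14 (8.30, 8.37, 13.75 and 13.78), Car7, Nrsn2, Opa3, Hoxa5, Cryl1, Csdc2, Slc5a9, Rab38 and Igfbp5, with ranges from 6.44 down to 4.42. Several of these are best known as genes of neurons, epidermis or embryonic patterning (Apc2, Nrsn2, Casp14, Hoxa5) rather than of T cells.

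Counted over all, 95 genes above background were higher in WT 3 and WT 4 by over 2 log2 and 0 were lower by as much. Of the 95, 83 had more than 1 probe set, and in 76 of those no other probe set passed a difference of 2; the 179 other probe sets had a median difference of -0.15. Among the 4784 genes read by a probe set with the plain suffix _at, 43 (0.899%) were in this class. For the suffix _x_at, which marks sets with probes that also match other transcripts, it was 33 of 471 (7.01%). The suffixes _s_at and _a_at lay near the plain suffix, at 8 of 589 (1.36%) and 11 of 1217 (0.904%). Of the genes higher in WT 1 and WT 2 by over 1, 32 had several probe sets, and in 28 no other passed that difference, with a median of -0.47 over the 64 others. What makes the probe sets differ was not tested. With the probe set whose lowest array is highest in place of that of the highest mean, a choice made after these values were seen, 74 genes were in the class instead of 95.

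Differences in the other direction were smaller. The 15 of largest range were Lmna (9.87, 10.32, 8.20 and 9.39), Klrg1 (11.69, 11.14, 9.64 and 10.55), Ly6e (10.20, 10.80, 8.76 and 9.83), H1f2, Pfn1, Capg, Myadm, Mtm1, Fli1, Erdr1, Atrnl1, Tacc1, Malt1, Kif2c and Kcnab2, with ranges from 2.12 to 1.55. Lmna (nuclear lamin), Pfn1 (profilin) and Capg are structural or actin-binding, Ly6e and Klrg1 are surface molecules of activated lymphocytes, and Malt1 carries antigen receptor signals to NF-kappaB. In all of these 15 but Mtm1, WT 3 was the lowest array. In the Treg list Itgae (11.88, 12.01, 10.48 and 11.19), Capg (10.09, 10.30, 8.58 and 9.06), Socs2 (10.19, 10.23, 9.28 and 9.19) and Nrp1 (9.55, 9.77, 8.73 and 8.93) were of this kind, and Ikzf4 ran the other way. Of the cell cycle genes above background 18 of 27 were higher in WT 1 and WT 2 and 1 in WT 3 and WT 4. Of oxidative phosphorylation genes 24 of 38 and 7 were, beside 41.5% and 33.3% of all. With median centring these became 25 and 1, and 36 and 1, beside 67.3% and 18.1% of all genes above background. The rise in the lists thus came with a shift of all genes.

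The 6 arrays of the other genotypes varied in many of the same genes. The brightest probe set of each gene was chosen anew over these 6 arrays, so it can differ from that of wild type. Of the 963 genes of a range over 1 in wild type, 63.0% were in the top 10% by standard deviation within the he and me groups (a pooled SD over 0.53), against 1.62% of the other 6098. For those higher in WT 3 and WT 4 the share was 77.0% and for those higher in WT 1 and WT 2 27.4%. On the scale of all 10 arrays the brightest Pik3cd probe set read 15.19 in he 2, he 3 and me 2 as in WT 3 and WT 4, 13.24 in me 3 and 8.51 and 8.59 in he 1 and me 1. The brightest sets of E2f5, Cd8a and Prox1 were also high in he 2, he 3 and me 2 and low in he 1 and me 1. For such genes the SD within he and me holds a split like that of the wild type pairs and is not a separate measure. The rank correlation between the range in wild type and that SD was 0.78 across 7061 genes, which are not independent replicates and share the array sets.

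Inside the pairs the arrays were close. WT 1 and WT 2 differed by over 1 in 4 genes above background and WT 3 and WT 4 in 31. A difference of over 0.5 in the same direction in both pairs was found in 33 genes with WT 1 and WT 3 the higher and in 17 with WT 2 and WT 4 the higher, and in the mixed directions in 6 and 1. Genes known from resting T cells were on the first side: Satb1 read 10.70, 9.84, 11.52 and 10.29, Bach2, a repressor of effector programs, 9.45, 8.28, 9.72 and 8.81, Klf2, which keeps T cells quiescent, 10.39, 9.59, 9.92 and 9.11, Klf3 10.14, 9.28, 10.34 and 9.39, Txnip 10.61, 9.89, 11.17 and 10.02, Bcl2 10.11 ± 0.65 (highest in WT 3) and Igfbp4 11.29, 10.70, 10.82 and 9.43. Gpr83 read 9.56, 8.90, 10.45 and 8.93 and at its second probe set 9.05, 8.28, 10.40 and 8.71. Gimap4 (11.81, 11.15, 12.46 and 11.45) and Smc6 (10.69, 10.05, 11.33 and 10.61) followed them.

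On the other side were Mid1, a microtubule-bound ubiquitin ligase (10.02, 11.18, 9.17 and 11.37), Ccl5, a chemokine of effector T cells (10.90, 11.82, 10.67 and 12.58), Stat3 (9.81, 10.36, 9.20 and 10.06) and the cell cycle gene Bub1b (10.08, 10.64, 9.39 and 10.04). Fscn1, an actin bundler of mature dendritic cells, read 11.63, 11.99, 10.85 and 13.22, highest in WT 4 at its brightest probe set. Its other 3 probe sets were highest in WT 1 or WT 2 and not in WT 4, the next one reading 8.61, 8.89, 7.76 and 8.51. WT 4 alone was also high in Ankrd33b (8.25, 8.77, 8.64 and 10.19) and H2-Ea, and Epsti1 (9.71, 9.62, 9.18 and 10.62) and Basp1 (9.37, 9.66, 8.98 and 10.28) were highest there too. Among the 15 genes in which 1 array stood farthest from the rest were also Crip1 (11.38, 11.38, 10.07 and 11.14), Ifi30, a lysosomal reductase (9.39, 9.58, 8.33 and 9.34), and Arsb (9.63, 9.62, 8.55 and 9.53), all lowest in WT 3, H2-Ob (9.07, 8.07, 9.99 and 9.14), lowest in WT 2, and the metallothionein Mt1 (8.98, 9.95, 10.57 and 10.74), lowest in WT 1. Lmna, Ly6e, Myadm, Atrnl1 and Ctla4, lowest in WT 3, were the others with Bcl2 and Igfbp4.

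**Figure D5:**
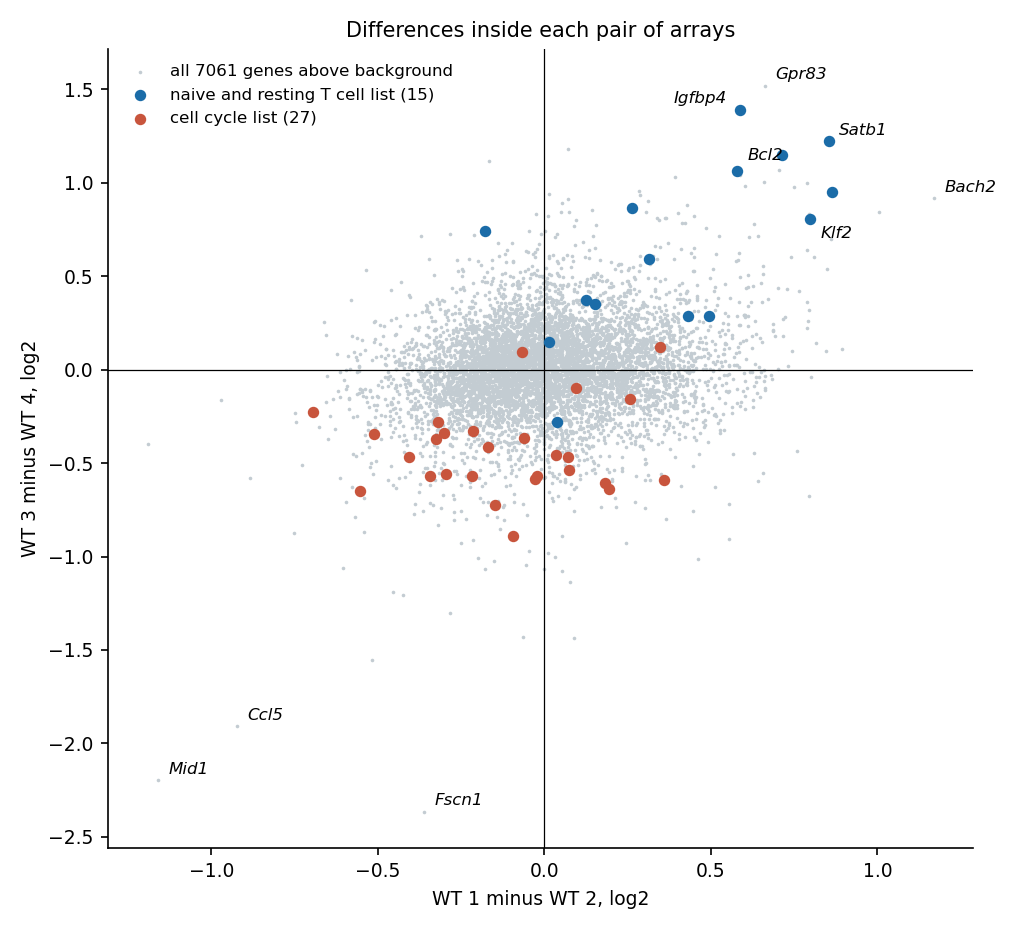
Difference WT 1 minus WT 2 (horizontal) against WT 3 minus WT 4 (vertical), log2, for the 7061 genes above background (grey), with the naive and resting T cell list (blue, 15 genes) and the cell cycle list (red, 27 genes). Of the blue genes 13 lie in the upper right, higher in WT 1 and WT 3, and none in the lower left, where Mid1, Ccl5, Fscn1 and 17 red genes lie.

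Over the whole naive and resting list, 13 of the 15 genes above background were higher in WT 1 than WT 2 and in WT 3 than WT 4, and 0 the reverse, beside 26.8% and 27.2% of all genes above background. The medians of the list were 0.43 for WT 1 minus WT 2 and 0.74 for WT 3 minus WT 4. The count was also 13 with no normalisation and with median centring. Cell cycle genes were the reverse in 17 of 27 and of the first kind in 1 of 27. With no normalisation or median centring only 8 of 27 were the reverse, so this count depends on the scaling. The share of all genes that were the reverse also fell, to 15.1% with no normalisation and 13.7% with median centring. Nucleotide synthesis genes followed the cell cycle at 11 of 22 and 0 of 22, with 7 and 2 under the other scalings. These counts were looked at after the values had been seen.

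Sex and a sign of RNA quality moved with this pattern. Xist, the RNA of the inactive X chromosome, read 11.10, 7.54, 11.46 and 7.20 and Eif2s3y, a Y-linked gene, 6.98, 10.33, 6.96 and 9.90, so WT 1 and WT 3 were of female and WT 2 and WT 4 of male type. The ratio of 3' to 5' signal of the Gapdh control was 9.53 and 9.27 in WT 1 and WT 3 and 7.84 and 7.90 in WT 2 and WT 4, whereas that of the actin control did not split the arrays this way. With 2 arrays of each, sex, this ratio and sample cannot be told apart here, and their part in the pattern was not tested. On the scale of all 10 arrays the brightest Satb1 probe set read 10.66, 11.75 and 9.92 in he 1, he 2 and he 3 and 10.51, 11.39 and 10.52 in me 1, me 2 and me 3. Xist read 11.17, 11.46 and 11.39 in the he arrays and 7.48, 7.21 and 11.28 in the me arrays. Ccl5 read 10.42, 11.54 and 12.36 in the he arrays and 10.17, 10.45 and 11.24 in the me arrays. These arrays are of other genotypes, so the values are given side by side only.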

How the data were processed

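The deposited table holds 1 linear intensity per probe set and array of an Affymetrix mouse array, for 10 arrays; how the authors summarised, background-corrected or scaled these intensities is not given in the sources used here. Of 45101 probe sets, 64 controls were left out, 34945 carried 1 gene symbol in GEO's platform annotation, 932 several and 9160 none; only those of 1 gene were named. Intensities of the 4 wild type arrays were set to log2(intensity + 32) and quantile normalised, which forces the same distribution on each array, and the probe set of highest mean stood for each gene. The 37 lists hold 894 measured genes. Members and lists were chosen with earlier results of these data known. Genes named are the marker genes, the 25 highest, the leading and best-known silent members of each list, and the 15 of largest range per pattern. No comparison between groups was tested, and the number of arrays limits the precision. Steps were checked on simulated data with a single row per gene, independent noise and shifts between the pairs in chosen genes. These data held no disagreeing probe sets and no shift of whole arrays, so the check does not cover those features. Python 3.11.15, numpy 2.4.6, pandas 2.3.3, scipy 1.17.1 and matplotlib 3.10.9 were used. Alternatives tried were the pseudocount, normalisation, probe set rule, background rule, filter and leaving out arrays.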

Additional observations from a re-analysis of the deposited data

Results flagged for a closer look

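In 10 of the 366 genes named, 1 of the 4 wild type arrays stood apart from the other 3 by a gap past Dixon's 95% critical value for 4 samples. Chance flags about 1 in 20 groups of independent values. Some of these genes were named because 1 array stood apart or because their range was small, and the arrays form pairs. The share flagged can therefore not be set against chance. WT 4 was high in H2-Ea, a chain of MHC class II, at 10.32 against 8.89 to 9.07. WT 3 was low in Arsb, a lysosomal sulfatase, at 8.55. WT 1 was high in Rheb (11.15) and Slc2a3 (10.96) and low in Cd3e (9.76). WT 2 was high in Lamtor1 (11.25) and low in Atp5c1 (12.47) and Il2 (7.51). WT 4 was low in Fyn (10.76) and Sash3 (10.95), the latter within a range of 0.02. Outside the named genes, 1114 of 9160 probe sets with no gene name (12.2%) were above the background percentile in all 4 arrays, and 166 of them reached the level of high genes; what they measure was not analysed here.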

How the results depend on the processing

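No paired analysis was possible because replicate numbers could pair samples only across genotypes, and a single group is described here with no test; the pairs WT 1 and WT 2, and WT 3 and WT 4, are likenesses seen in the values and not labelled pairs. The 7061 genes above background became 4160 with the 99th percentile of the sensory receptor genes, 4415 with tissue-restricted genes as background and 10775 with WT 1 and WT 2 alone. The 963 genes with a range over 1 became 602 with a larger pseudocount, 2084 with no normalisation, 3172 with median centring, 379 with the mean of all probe sets, 567 and 525 under the stricter backgrounds, 1856 with no filter, and 9 and 15 within WT 1 and WT 2 or WT 3 and WT 4 alone. The 5277 genes that part the pairs became 2937 and 3117 under the stricter backgrounds and 14406 with no filter. The 95 genes higher in WT 3 and WT 4 by over 2 became 22 with the mean of all probe sets and 49 with median centring. Leaving out each array in turn gave 7154 to 7643 genes above background, 1748 to 1766 of the high genes kept, 687 to 939 with a range over 1 and 6245 to 6600 that part the pairs. Over the alternatives the Treg list had 20 to 26 genes above background, the T cell list 22 to 27, the B cell list 2 to 12, the CD8 and natural killer list 2 to 12, the neutrophil list 0 to 5 and the gamma delta T list 6 to 13. The alternatives within each pair and the probe set rule by the lowest array were chosen after the data had been seen. Signals near background limit the low genes, whose differences are compressed.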
